A study of Mus musculus with 10 samples.

Results

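The 10 cell-surface receptor genes examined encode chains that signal to STAT transcription factors and were followed in RNA from mouse ileal crypts, the pockets of the small intestine lining that hold its stem cells and Paneth cells. The genes were taken by symbol, and all 10 were found among the 28987 gene identifiers: Ghr and Prlr, Il4ra and Il13ra1, Il22ra1 and Il10rb, Il6st and Lifr, and Ifngr1 and Ifngr2. There were 3 groups, all from C57Bl6 mice labelled male and 12 weeks old, and all carrying VilCreER, an inducible Cre recombinase driven by the villin promoter, which is active in the gut epithelium. The 3 control libraries (Ctrl) carried VilCreER;Stat5 with the genotype STAT5+/+. The 2 knockout libraries (KO) carried VilCreER;Stat5 with the genotype STAT5IEC-/-, that is, loss of STAT5 in intestinal epithelial cells. The 5 overexpression libraries (OE) carried VilCreER;icS5 and are labelled STAT5IEC+++. The labels do not spell out icS5, and no control of that line was analysed here, so the allele and the line cannot be told apart. The labels do not say that libraries came from separate animals, so the p-values measure only the spread between these libraries, which may be technical.

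A receptor of this class has no kinase of its own. When a hormone or cytokine brings its chains together, the Janus kinases bound to their tails phosphorylate each other, the receptor and then a STAT protein, which moves to the nucleus and binds DNA. The growth hormone and prolactin receptors (Ghr, Prlr) act mainly through STAT5. The IL-4 receptor alpha chain (Il4ra) and its partner Il13ra1 act through STAT6, Il22ra1 with Il10rb and Il6st with Lifr act mainly through STAT3, and Ifngr1 with Ifngr2 forms the interferon gamma receptor. In the gut epithelium, IL-22 drives antimicrobial proteins, and IL-13 drives goblet and tuft cell responses.

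STAT dimers bind palindromic sites, so the stretches before the start sites of 3 receptor genes are shown: Il22ra1 and Prlr, the receptors with an unadjusted p under 0.05 in a group comparison, and Ifngr2, which held the other spacing of the site. Each is the 250 bases upstream of a start site in RefSeq (GRCm38.p6, plus strand), with a match in capitals. Il22ra1 lies at chr4:135727909-135728158, the Prlr start with the match at chr15:10223656-10223905, and Ifngr2 at chr16:91546809-91547058.
Il22ra1: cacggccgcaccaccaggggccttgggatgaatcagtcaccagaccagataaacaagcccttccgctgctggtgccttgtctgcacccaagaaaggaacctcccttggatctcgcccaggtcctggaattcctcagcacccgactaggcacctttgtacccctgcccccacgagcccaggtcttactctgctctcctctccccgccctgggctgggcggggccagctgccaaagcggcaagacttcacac
Prlr: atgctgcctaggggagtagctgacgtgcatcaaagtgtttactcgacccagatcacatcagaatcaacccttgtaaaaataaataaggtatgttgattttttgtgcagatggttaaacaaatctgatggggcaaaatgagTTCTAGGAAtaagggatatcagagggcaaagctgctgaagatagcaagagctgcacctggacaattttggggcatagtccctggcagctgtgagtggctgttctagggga
Ifngr2: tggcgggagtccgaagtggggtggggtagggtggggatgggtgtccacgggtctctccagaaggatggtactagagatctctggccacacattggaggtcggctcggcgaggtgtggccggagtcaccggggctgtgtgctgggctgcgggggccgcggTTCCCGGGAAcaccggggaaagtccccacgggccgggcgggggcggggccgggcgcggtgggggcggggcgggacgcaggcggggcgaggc
The motif TTCNNNGAA, the spacing that STAT5 binds, reads the same on both strands and was found in 1 of the 13 receptor promoter windows of 300 bases. That was 1 of the 3 Prlr windows, with TTCTAGGAA 110 bases before its start, and the other 2 Prlr windows held no match. The same motif was found in 8.30% of all 32851 promoter windows. The wider spacing TTCNNNNGAA, associated with STAT6, also reads the same on both strands and was found in 1 of the 13, the Ifngr2 window, with TTCCCGGGAA 91 bases before the start, against 6.95% of all windows. The 2 matches lie in different windows and do not overlap. The windows covered 9 of the 10 genes. A match describes letters in a window and shows no binding.

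Several libraries stood apart. Values are TPM (a transcript's share of all transcripts in a library, corrected for gene length). They were divided by 1 factor per library, so that the typical gene has the same level in each, and are then called scaled TPM. The factor was 0.295 for Ctrl 2 and 0.831 to 1.31 for the others, mitochondrially encoded genes took 83.7% of the TPM of Ctrl 2 against 43.3 to 56.97% elsewhere, and 8263 genes reached 1 TPM in Ctrl 2 against 11050 to 11932 elsewhere. Ctrl 2 also had a summed Paneth marker level of 421.8 against 2912 to 15144 in the other libraries, and a summed enterocyte marker level of 13856 against 1433 to 9359. In TPM as deposited, not scaled, 4 Y-linked genes summed to 3.45 for Ctrl 3, 0.250 for OE 3 and 0.140 for OE 4. The other libraries were at 32.3 to 131.3, although all are labelled male. Stat5b, one of the targeted genes, was at 0.970 to 1.76 scaled TPM in Ctrl, 0.430 to 0.482 in KO and 1.49 to 5.53 in OE, and Stat5a at 1.07 to 2.60, 0.336 to 0.637 and 1.56 to 3.55. The library labelled OE 1 lay inside the Ctrl range for both genes, and in TPM as deposited Stat5a was at 0.771 in KO 1 beside 0.765 in Ctrl 2. The epithelial markers were high in every library, with sums of 4021 to 7064 scaled TPM, while smooth muscle markers summed to 1.31 to 3.38, endothelial markers to 0.279 to 3.34 and fibroblast markers to 10.6 to 108.6.

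Receptor levels spanned a wide range. Ifngr1, the ligand-binding chain of the interferon gamma receptor, was the most abundant at a mean of 144.3 scaled TPM over the 10 libraries, above 96.5% of the genes tested. Ifngr2, its signalling partner, followed at 41.9, then Il13ra1 at 35.2, Il10rb at 34.3, Prlr at 31.1 and Il22ra1 at 17.1. Il4ra was at 7.88, Il6st at 3.32, Ghr at 1.62 and Lifr at 0.0734. Ifngr1 exceeded Ifngr2 in 10 of 10 libraries, and Ifngr2 exceeded Il13ra1 in 9. Il13ra1, Il10rb and Prlr could not be ordered, since Il13ra1 exceeded Il10rb in 7 libraries and Il10rb exceeded Prlr in 5. Prlr exceeded Il22ra1 in 9 libraries, Il22ra1 exceeded Il4ra in 10, Il4ra exceeded Il6st in 10 and Il6st exceeded Ghr in 9. In bulk RNA, fewer cells of a type and less RNA per cell cannot be told apart.

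**Figure D1:**
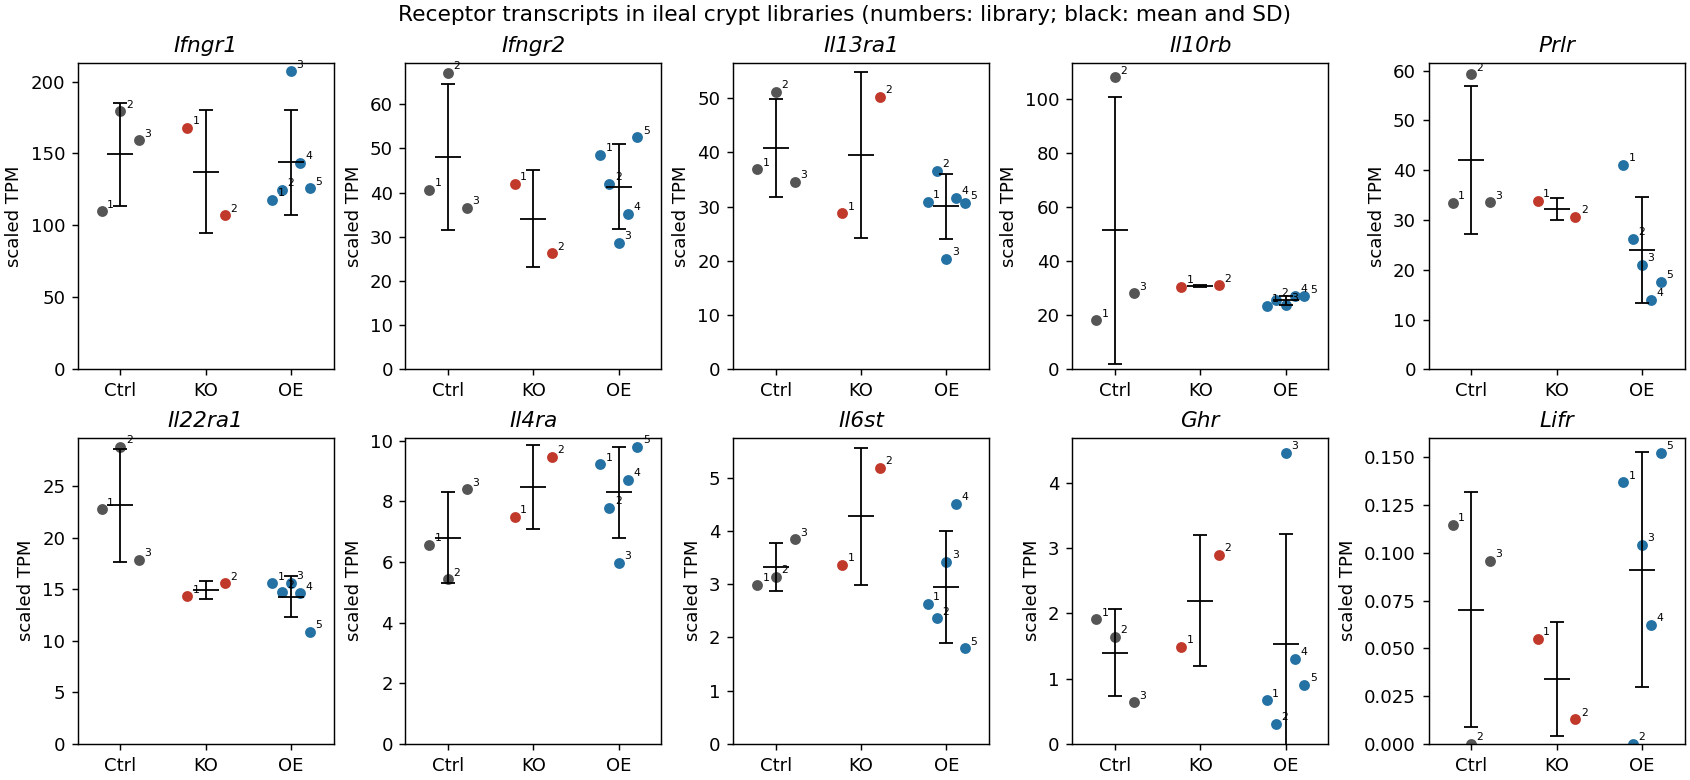
Scaled TPM of each receptor gene in every library (vertical axes, linear from 0), by group, with the library number beside each point and the group mean and SD in black. Il22ra1 is lower in the 2 KO and 5 OE libraries than in each of the 3 Ctrl libraries, and Il10rb in Ctrl 2 stands at 108.04 against 18.1 to 31.1 elsewhere.

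None of the receptor genes differed between groups at the adjusted threshold. In the limma fit of log2(scaled TPM + 1) over 13056 genes, 0 of the 9 receptors that passed the filter on low values were called in KO against Ctrl, in OE against Ctrl or in OE against KO, and 0% of all genes tested were called in each. At an unadjusted p under 0.05, 3.46% of all genes (452) passed in KO against Ctrl with 0 receptors, 6.1% (797) in OE against Ctrl with 2 receptors (Il22ra1 and Prlr), and 2.95% (385) in OE against KO with 0 receptors. Both receptors in OE against Ctrl missed that unadjusted threshold without Ctrl 2 alone, where 0 passed, and in TPM as deposited, where 0 passed. With Ctrl 2 and OE 1 left out together, 1 receptor passed. Without OE 3, OE 4 or OE 5 Prlr missed it and 1 receptor, Il22ra1, passed. Other settings added receptors. Without Ctrl 1, 3 passed in OE against Ctrl. In KO against Ctrl 1 passed without Ctrl 3, 1 with library weights and 1 with no filter. In OE against KO 1 passed with Ctrl 2 and OE 1 left out together, and 1 with Ctrl 3, OE 3 and OE 4 left out together. KO and OE were both compared with the same 3 Ctrl libraries, so those comparisons are not independent. In OE against Ctrl the difference was negative for 8 of 9 receptors, with a median of -0.19 against 0.021 for all genes, of which 47.9% were negative. Without Ctrl 2, 4 of 9 were negative, with a median of 0.015. In KO against Ctrl it was negative for 6 of 9, with a median of -0.13 against 0.038, and for 3 of 9, with a median of 0.090, without Ctrl 2. In OE against KO, which uses no Ctrl library, 7 of 9 were negative, with a median of -0.27 against -0.00062. Of all genes, 46.7% were negative in KO against Ctrl and 50.1% in OE against KO. The all-gene shares of the 3 comparisons are also the background for the sign counts of the gene lists below. The scale matters for these signs: in TPM as deposited the median of all genes was itself 0.38 in KO against Ctrl and 0.36 in OE against Ctrl, and 8 and 6 of the 9 receptors were positive.

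**Figure D2:**
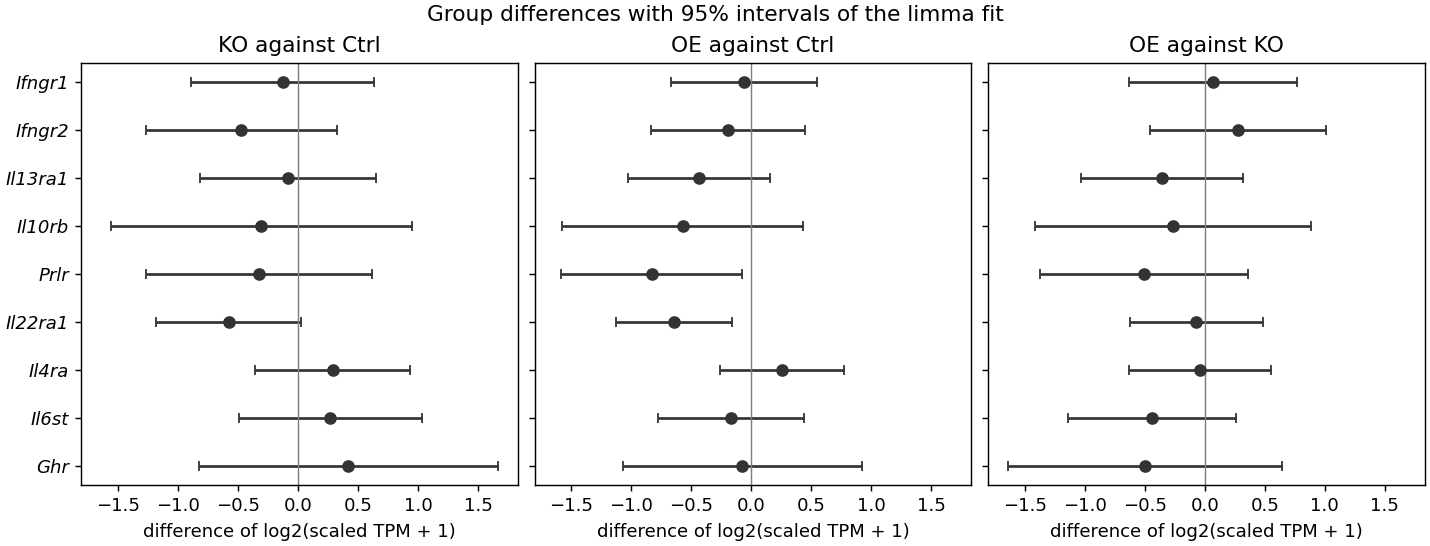
Difference of log2(scaled TPM + 1) between group means (horizontal axis) for the 9 receptor genes tested, with 95% intervals of the limma fit as bars. Only the intervals of Il22ra1 and Prlr in OE against Ctrl exclude 0, and neither passes the threshold after adjustment over all 13056 genes.

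The prolactin receptor, Prlr (ENSMUSG00000005268, chr15:10177238-10349180 in mm10), was above 82.7% of the genes tested by its mean level. It was at 33.5, 59.2 and 33.6 scaled TPM in Ctrl 1 to 3, against 33.8 and 30.6 in KO 1 and 2 and against 41.0, 26.2, 21.1, 13.9 and 17.6 in OE 1 to 5. In OE 2 to OE 5 Prlr was below every Ctrl library, and in the library labelled OE 1 it was above 2 of them. The means were 42.1 ± 14.8 (SD, n = 3), 32.2 ± 2.26 (SD, n = 2) and 24.0 ± 10.6 (SD, n = 5). The OE against Ctrl difference was -0.83 (95% interval -1.58 to -0.08) on the log2(scaled TPM + 1) scale, with an unadjusted limma p of 0.0341 and an adjusted p of 0.755. Without Ctrl 2 it was -0.56, and over the 22 alternatives it ran from -1.07 to -0.34, the smallest size in TPM as deposited. Some of the 22 leave a difference unchanged by design, such as those that drop only libraries outside the groups compared. In TPM as deposited the groups overlapped, at 17.4 to 43.8 in Ctrl and 16.5 to 34.3 in OE. Once mitochondrially encoded genes were left out of the TPM, Prlr was at 81.4 to 107 in Ctrl and at 37.0 to 80.5 in OE, with no overlap, as for 1.23% of genes in this direction. In KO against Ctrl the difference was -0.32 (-1.27 to 0.62), and its sign was positive, at 0.19, in TPM as deposited.

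The growth hormone receptor, Ghr (ENSMUSG00000055737, chr15:3317760-3583492), was near the low end. It was at 1.91, 1.64 and 0.640 scaled TPM in Ctrl 1 to 3, against 1.48 and 2.90 in KO and against 0.670, 0.305, 4.46, 1.31 and 0.906 in OE 1 to 5. The groups overlapped, and OE 3 was the highest library. The KO against Ctrl difference was 0.42 (-0.82 to 1.67) and the OE against Ctrl difference was -0.08 (-1.07 to 0.92). The ratio of Prlr to Ghr in deposited TPM ran from 4.72 in OE 3 to 86.0 in OE 2, and both extremes were OE libraries.

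Il22ra1 (ENSMUSG00000037157, chr4:135728172-135752140), the chain that gives the IL-22 receptor its specificity and is largely restricted to epithelia, was the receptor whose Ctrl values overlapped neither KO nor OE. It was at 22.8, 28.8 and 17.9 scaled TPM in Ctrl 1 to 3, against 14.3 and 15.6 in KO 1 and 2 and against 15.6, 14.8, 15.7, 14.6 and 10.9 in OE 1 to 5. All KO and OE libraries lay below all Ctrl libraries. The group means were 23.1 ± 5.48 (SD, n = 3), 14.9 ± 0.889 (SD, n = 2) and 14.3 ± 1.97 (SD, n = 5). Such a separation, lower and without overlap, was seen for 7.27% of the genes tested in KO against Ctrl and for 1.52% in OE against Ctrl. The share of genes lower in both comparisons was not computed. It cannot be derived from these 2 shares, since both comparisons use the same 3 Ctrl libraries. How unusual the joint separation of Il22ra1 is among all genes is therefore not known. The OE against Ctrl difference was -0.64 (-1.13 to -0.16), with an unadjusted limma p of 0.0137 and an adjusted p of 0.755. The KO against Ctrl difference was -0.57 (-1.18 to 0.03), with an unadjusted limma p of 0.0598 and an adjusted p of 0.943. KO and OE did not separate, with a difference of -0.07 (-0.62 to 0.48).

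The Il22ra1 difference held its sign in KO against Ctrl and in OE against Ctrl under each of 22 alternative settings, but its size did not. Settings that drop only libraries outside the groups compared cannot change that sign. The difference ran from -0.77 to -0.077 in KO against Ctrl and from -0.88 to -0.17 in OE against Ctrl, and the separation depended on the scale. In TPM as deposited Il22ra1 had 27.8, 8.48 and 23.3 in Ctrl, against 17.3 and 16.3 in KO, and 12.1 to 19.3 in OE, so Ctrl 2 was the lowest library. Without Ctrl 2 the deposited values did not overlap, as for 19.6% and 6.11% of the genes tested. Per 1000 TPM of summed epithelial markers, Il22ra1 was at 5.43, 7.16 and 3.00 in Ctrl, against 2.54 and 3.05 in KO and against 1.73 to 3.59 in OE, and Ctrl 3 fell within the other groups. The part of the marker shifts of Ctrl 2 in this difference was not tested. Without that library the scaled values did not overlap, as for 13.1% of genes in KO against Ctrl and 3.51% in OE against Ctrl, and the OE against Ctrl difference was -0.48, with an unadjusted limma p of 0.0542. Without mitochondrially encoded genes in the TPM, Il22ra1 was at 43.4 to 57.0 in Ctrl, with 35.0 and 35.9 in KO and 23.0 to 41.2 in OE, again without overlap, as for 6.12% and 1.23% of genes.

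**Figure D3:**
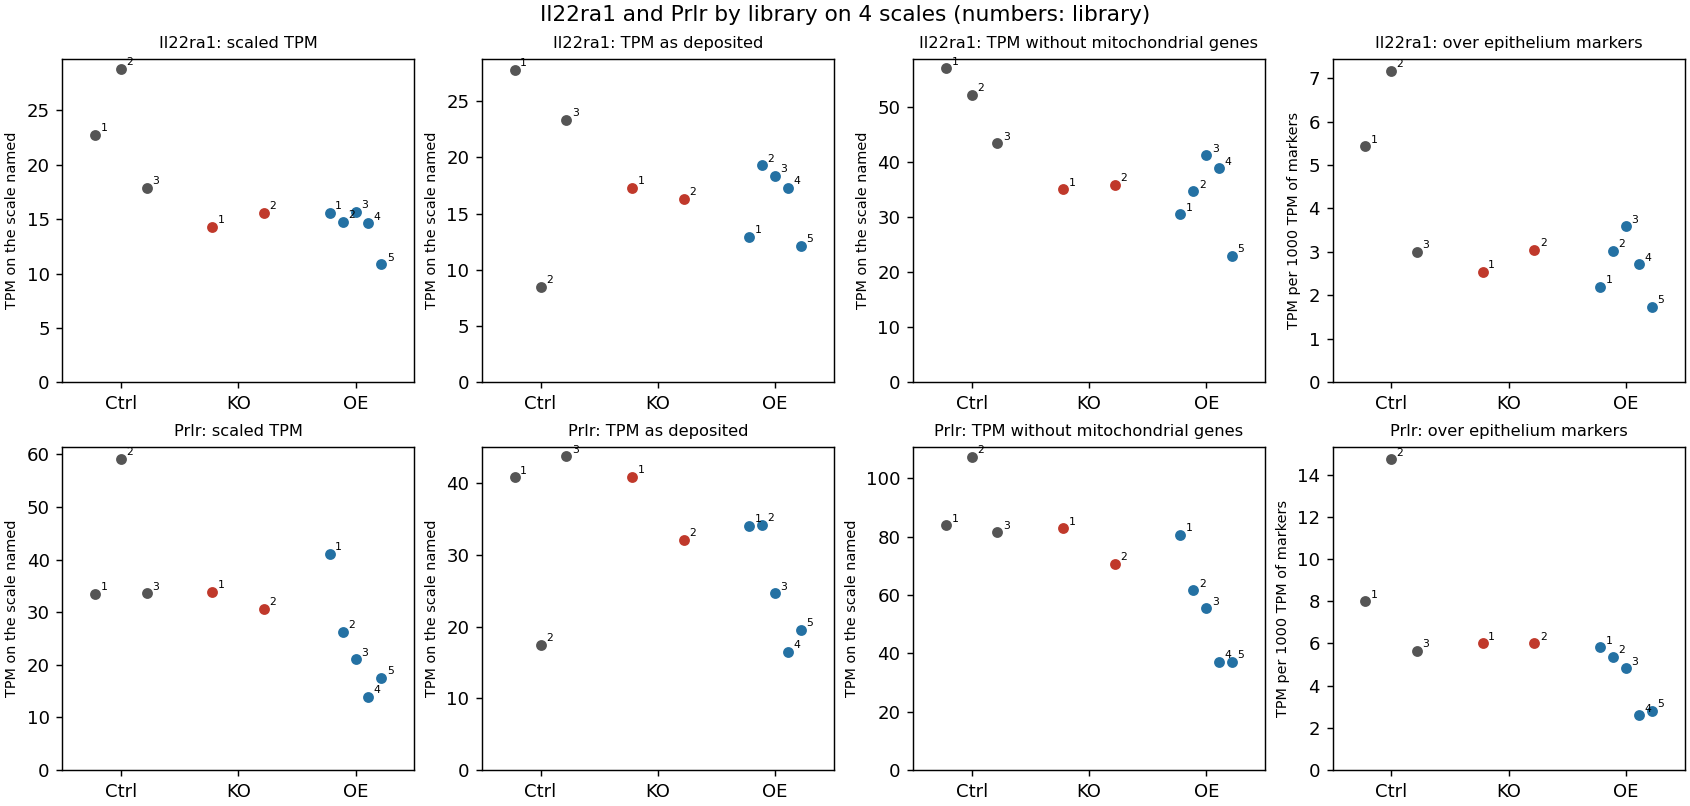
Il22ra1 and Prlr in every library (vertical axes, linear from 0, in the units named in each panel) on 4 scales: TPM as deposited, scaled TPM, TPM without mitochondrially encoded genes, and TPM per 1000 TPM of epithelial markers. Il22ra1 in Ctrl 2 is the lowest library as deposited at 8.48 and the highest in scaled TPM at 28.8.

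Il10rb (ENSMUSG00000022969, chr16:91406164-91425834), the shared second chain of the IL-22 and IL-10 receptors, had 1 control library far above the rest. It was at 18.1, 108.04 and 28.1 scaled TPM in Ctrl 1 to 3, against 30.5 and 31.1 in KO and against 23.6, 25.7, 23.9, 27.3 and 27.0 in OE 1 to 5. Ctrl 2 was the highest library, and the OE values lay below both KO values, as they did for 4.43% of the genes tested. The KO against Ctrl difference was -0.30 (-1.56 to 0.95) and the OE against Ctrl difference was -0.57 (-1.57 to 0.43). Without Ctrl 2 both were positive, at 0.43 and 0.17, and both KO values lay above both remaining Ctrl values, as for 14% of genes. In TPM as deposited Il10rb ranged over 22.1 to 36.6 in Ctrl, against 32.6 to 36.9 in KO and 19.6 to 33.6 in OE. The ratio of Il22ra1 to Il10rb was 1.26, 0.267 and 0.637 in Ctrl, 0.469 and 0.500 in KO and 0.402 to 0.660 in OE, so the Ctrl libraries held both the highest and the lowest value.

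The IL-4 and IL-13 receptor chains did not separate the groups. Il4ra (ENSMUSG00000030748, chr7:125552120-125579474) was at 6.57, 5.43 and 8.40 scaled TPM in Ctrl, 7.50 and 9.46 in KO and 9.22, 7.79, 5.96, 8.71 and 9.79 in OE 1 to 5. The differences were 0.29 (-0.35 to 0.94) in KO against Ctrl and 0.25 (-0.26 to 0.77) in OE against Ctrl. Both were positive under each of the 22 alternatives, some of which cannot change them. Il13ra1 (ENSMUSG00000017057, chrX:36112110-36171259), which joins Il4ra into the receptor for IL-13, had 36.9, 51.2 and 34.5 scaled TPM in Ctrl, against 28.7 and 50.3 in KO and 30.9, 36.6, 20.3, 31.6 and 30.7 in OE. Its OE against Ctrl difference was -0.44 (-1.02 to 0.15), and of the KO libraries one lay below the Ctrl values and the other within them. The ratio of Il13ra1 to Il4ra was 4.11 to 9.43 in Ctrl, 3.83 and 5.31 in KO and 3.13 to 4.70 in OE, so the groups overlapped.

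The gp130 chains were low. Il6st (ENSMUSG00000021756, chr13:112464070-112510086), which encodes gp130, the signalling chain of the IL-6, IL-11 and LIF receptors, was at 2.99, 3.14 and 3.84 scaled TPM in Ctrl, 3.36 and 5.18 in KO and 2.63, 2.36, 3.43, 4.51 and 1.79 in OE 1 to 5. The groups overlapped, with differences of 0.27 (-0.49 to 1.03) in KO against Ctrl and -0.17 (-0.78 to 0.44) in OE against Ctrl. Lifr (ENSMUSG00000054263, chr15:7090614-7197489), the LIF receptor chain that pairs with gp130, was listed at 0 in Ctrl 2 and OE 2 and at 0.013 to 0.152 in the other libraries. It did not pass the filter on low values and was not tested.

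The interferon gamma receptor chains were abundant in every group. Ifngr1 (ENSMUSG00000020009, chr10:19591949-19610229) was at 109.96, 179.4 and 159.1 scaled TPM in Ctrl, 167.7 and 107.1 in KO and 117.9, 124.8, 207.2, 143.6 and 125.8 in OE 1 to 5. The group means, 149.5 ± 35.7 (SD, n = 3), 137.4 ± 42.8 (SD, n = 2) and 143.9 ± 36.6 (SD, n = 5), lay within 1 SD of each other. Ifngr2 (ENSMUSG00000022965, chr16:91547072-91565623) had 40.7, 67.1 and 36.6 scaled TPM in Ctrl, against 42.0 and 26.3 in KO and 48.5, 41.9, 28.6, 35.2 and 52.5 in OE. The differences for Ifngr2 were -0.47 (-1.27 to 0.33) in KO against Ctrl and -0.19 (-0.83 to 0.44) in OE against Ctrl. The ratio of Ifngr1 to Ifngr2 was 2.67 to 4.35 in Ctrl, 4.00 and 4.07 in KO and 2.40 to 7.23 in OE, with the highest value in OE 3. Ifngr2 lies 121238 bases from Il10rb on chromosome 16.

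**Figure D4:**
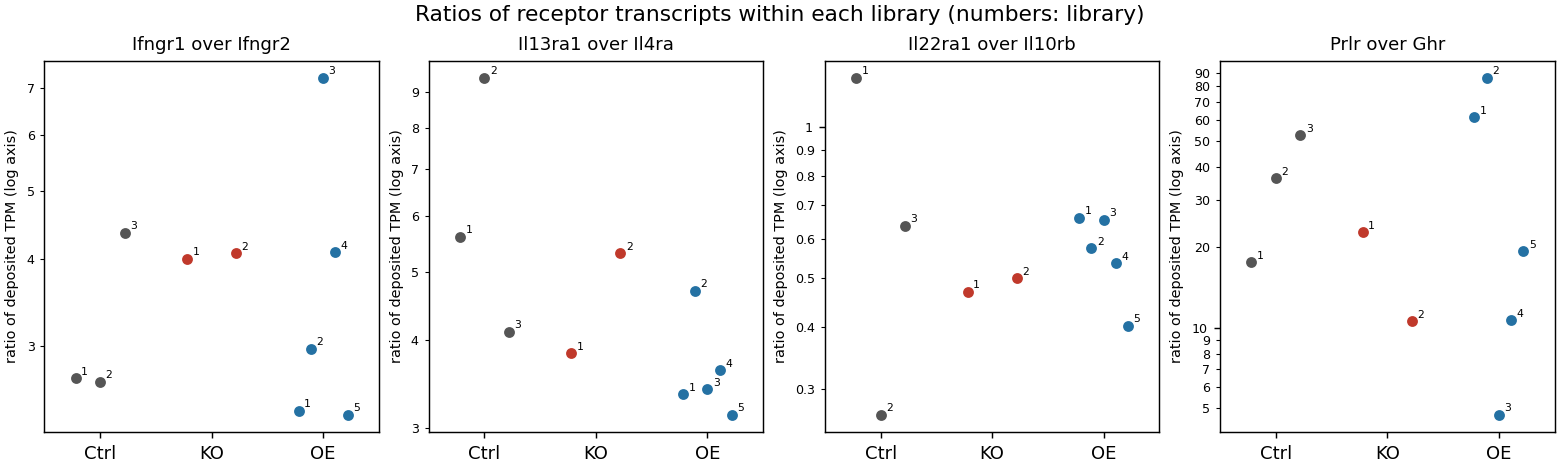
Ratio of deposited TPM (vertical axis, log scale) within each library for Ifngr1 over Ifngr2, Il13ra1 over Il4ra, Il22ra1 over Il10rb and Prlr over Ghr, by group, with numbers for the libraries. The Prlr over Ghr ratio runs from 4.72 to 86.0 among the OE libraries alone.

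The ligands for these receptors were low or at 0. Of 13 ligand genes, 3 passed the filter on low values, and Prl and Il22 were listed at 0 in every library. Lif, the ligand of Lifr and gp130, had a mean of 5.74 ± 7.52 scaled TPM (SD, n = 3) in Ctrl, against 0.979 ± 0.218 (SD, n = 2) in KO and against 1.90 ± 1.07 (SD, n = 5) in OE. The ligand genes called were 0 of 3.

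The kinases and STATs that the receptors feed showed 0 of 11 genes called in each comparison. In KO against Ctrl all 11 differences were negative, with a median of -0.35 beside 0.038 for all genes, but the list holds the targeted Stat5a and Stat5b. In TPM as deposited 7 of the 11 were positive, with a median of 0.037. The median of all genes on that scale was 0.38, and 20.8% of all genes were negative. In OE against KO, with the same targeted genes in the list, all 11 were positive, with a median of 0.56 beside -0.00062 for all genes. Without OE 4 the OE against KO count was 9 of 11 with a median of 0.31, and 8 of 11 were positive after scaling to epithelial markers. Without KO 1 the KO against Ctrl count of positive genes was 3 of 11. Stat3, which transmits IL-22 and gp130 signals, was the most abundant, at 95.9 ± 15.3 scaled TPM (SD, n = 3) in Ctrl, against 66.7 ± 0.0385 (SD, n = 2) in KO and against 181.2 ± 86.3 (SD, n = 5) in OE. Stat6, which transmits IL-4 and IL-13 signals, averaged 76.9 ± 24.8 scaled TPM in Ctrl, against 38.7 ± 15.5 in KO and against 59.65 ± 14.97 in OE, with a KO against Ctrl difference of -0.97 (-1.83 to -0.11). Jak1, which binds many of these receptors, differed by -0.11 (-0.77 to 0.56) in KO and by -0.07 (-0.61 to 0.46) in OE against Ctrl, and Jak2, the kinase of the hormone receptors, by -0.35 and -0.34.

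The other receptors of the class were mostly low: 16 of 34 were tested, 0 were called in each comparison, and 11 of 16 were positive in OE against Ctrl with a median of 0.45, as were 13 of 16 in OE against KO with a median of 0.32. Without OE 4 the OE against Ctrl median was 0.29. Il2rg, the common gamma chain of lymphocyte cytokine receptors, was at 2.18 ± 1.75 scaled TPM (SD, n = 3) in Ctrl, against 3.89 ± 3.73 (SD, n = 2) in KO and against 12.6 ± 6.26 (SD, n = 5) in OE, a difference of 2.11 (0.72 to 3.50) in OE against Ctrl. Its limma adjusted p was 0.755. The 8 T cell markers summed to 42.7 to 154.9 scaled TPM in Ctrl, 25.0 to 66.6 in KO and 78.1 to 326.8 in OE, and the 6 B and plasma cell markers to 4.82 to 30.6, 11.9 to 28.3 and 21.7 to 189.2; their part in the Il2rg difference was not tested. Il15ra, the IL-15 receptor alpha chain, was at 7.59 ± 3.71, 3.86 ± 0.054 and 4.71 ± 1.15, and Ifnar1, a chain of the type I interferon receptor, at 7.27 ± 1.38, 6.34 ± 0.259 and 6.19 ± 2.17 in the same order of groups.

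The inhibitors of these pathways gave 0 of 17 genes called in each comparison. Socs2, a STAT5 target that restrains growth hormone signalling, was at 90.97 ± 50.4 scaled TPM (SD, n = 3) in Ctrl, against 123.8 ± 28.2 (SD, n = 2) in KO and against 65.5 ± 10.7 (SD, n = 5) in OE. The OE against KO difference for Socs2 was -0.91 (-1.76 to -0.05), unadjusted. Socs3, which restrains gp130 signalling, was at 26.1 ± 26.8, 16.3 ± 3.77 and 13.1 ± 5.14, and the phosphatase Ptpn6 at 66.9 ± 38.6, 36.3 ± 27.7 and 60.4 ± 26.3.

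Genes known to respond to the receptors gave 0 calls in each list and comparison. Those of IL-22, antimicrobial and acute-phase genes, had positive differences in 6 of 8 in KO against Ctrl, with a median of 0.80, and in 8 of 8 in OE against Ctrl, with a median of 0.79, beside 0.038 and 0.021 for all genes. Without Ctrl 2 the OE against Ctrl count was 6 of 8 with a median of 0.65, and without KO 1 the KO against Ctrl median was 0.34 and without KO 2 it was 1.35. Reg3g, a lectin that kills Gram-positive bacteria, was at 506.4 ± 240.8 scaled TPM (SD, n = 3) in Ctrl, against 1850 ± 924.5 (SD, n = 2) in KO and against 980.9 ± 539.8 (SD, n = 5) in OE, with a KO against Ctrl difference of 1.92 (0.26 to 3.58). Saa1, an acute-phase protein, was at 8.45 ± 10.7, 142.0 ± 110.1 and 61.8 ± 60.3, and Reg3b, a related lectin, at 1467 ± 1190, 2852 ± 56.4 and 2672 ± 1632. The macrophage and dendritic cell markers summed to 51.2 to 85.9 scaled TPM in Ctrl, 150.4 to 249.02 in KO and 72.1 to 299.5 in OE, and Paneth markers to 421.8 to 6561, 2912 to 6635 and 4639 to 15144; their part in these values was not tested.

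The responses to the other receptors were mixed. Genes of the IL-4 and IL-13 response were positive in 3 of 7 in KO against Ctrl, with a median of -0.16, and in 7 of 7 in OE against Ctrl, with a median of 0.60. The KO against Ctrl count was 6 of 7 without KO 2 or Ctrl 3 and 2 of 7 without KO 1. The OE against Ctrl count was 4 of 7 without Ctrl 2, and the median was 0.21 with 5 of 7 positive without OE 4, 0.35 without Ctrl 1 and 1.03 without Ctrl 3. Clca1, a goblet cell secreted protein, was at 485.1 ± 659.8, 144.2 ± 0.411 and 375.4 ± 382.2 scaled TPM in Ctrl, KO and OE. Interferon gamma response genes were positive in 4 of 11 in KO against Ctrl and 8 of 11 in OE against Ctrl, but in 8 of 11 in KO against Ctrl without KO 1, and in 5 of 11 in OE against Ctrl without Ctrl 1. In TPM as deposited the counts were 9 and 10 of 11, where only 20.8% and 17.1% of all genes were negative. Irf1, a transcription factor induced by interferon, was at 45.7 ± 12.8, 40.5 ± 7.42 and 49.4 ± 9.32. Gp130 response genes were positive in 3 of 6 in KO against Ctrl, or 0 of 6 without KO 2, and in 4 of 6 in OE against Ctrl, or 2 of 6 without Ctrl 1, with Junb at 19.5 ± 5.34, 15.6 ± 3.81 and 22.4 ± 7.11. Growth hormone and prolactin response genes were positive in 2 of 5 in KO against Ctrl, or 5 of 5 without KO 2, 4 of 5 without Ctrl 2 and 1 of 5 without KO 1, and in 3 of 5 in OE against Ctrl. Cish, a STAT5-induced inhibitor, was at 4.26 ± 2.90, 3.24 ± 2.90 and 4.14 ± 1.93.

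The genes whose levels followed each receptor most closely over the 10 libraries are given as a description, since all 10 points share the libraries' depth and cell make-up. They were picked for the highest correlation among the 13056 genes tested. How high such a pick comes out by chance over 10 libraries was not computed. Il22ra1 followed 4632427E13Rik (Pearson r = 0.993) and Arhgap26 (0.943) in log2(scaled TPM + 1), and Prlr followed Gigyf2 (0.933) and Hexdc (0.915). Il10rb followed Creb3 (0.968) and Elp4 (0.958), and Ghr followed Dph6 (0.966) and Vps26b (0.915). The closest gene was Atp6v1h (0.940) for Il4ra, Pfkfb2 (0.946) for Il13ra1, Tada2b (0.928) for Il6st, Rnf166 (0.928) for Ifngr1 and Rcan1 (0.950) for Ifngr2. Without Ctrl 2 the correlation of Il10rb with Creb3 was 0.627 and with Elp4 0.587 over 9 libraries. That of Il22ra1 was 0.989 with 4632427E13Rik and 0.875 with Arhgap26, and that of Prlr was 0.893 with Gigyf2 and 0.871 with Hexdc. The other genes named were at 0.913 to 0.967. 4632427E13Rik was itself low, at 0.243 to 2.66 scaled TPM.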

How the data were processed

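RNA of 10 ileal crypt libraries was measured by single-end RNA-seq. The authors deposited 1 table per library with TPM values per gene, per the file headers of 9 of the 10; the header of Ctrl 1 names no unit. TopHat, Cufflinks and the mm10 build are named in the submitters' processing notes, with no version. TPM keeps no depth, so the depth is unknown and no counting interval is given. Gene symbols were matched for 27458 of 28987 identifiers, and positions come from GENCODE M21.

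Libraries were scaled by median-ratio factors over the 11146 genes above 0 in all libraries. Genes at 1 TPM or more in at least 2 libraries (13056) were tested with limma 3.58.1 in R 4.3.3. The fit took log2(scaled TPM + 1) and the 3 group means, and let the variance follow mean level. Benjamini-Hochberg adjusted p-values under 0.05 were called. A fold change on this scale understates the change of low genes. Prlr and Il10rb overlap the annotated genes Gm21973 and Gm21970 on the same strand, and Il4ra overlaps Gm44876 on the opposite strand, where it matters whether counting used strand, which is not given in the sources used here. These 3 overlapping genes are not in the tables used, and the 3 receptors' values are uncertain. The fit was tested on 3 simulated tables of 13056 genes: of 200 genes changed by 3 on the log2 scale in KO against Ctrl, 160 to 175 were called, with 10 to 12 unchanged genes. The changed genes were drawn from those with a mean log2(scaled TPM + 1) of at least 3. The simulation does not show how often smaller changes, or changes in lower genes, would be called.

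The 10 receptors and all lists were chosen with earlier results of these data known. Named besides them are Stat5a, Stat5b, up to 4 genes of each list by mean level, and the 2 genes most alike to each receptor, of which some are not printed. Ligands such as Il22 at 0 were singled out after their values were seen. Alternatives covered scaling, pseudocounts, filters, the libraries in the fit, a replicate block, library weights and each library left out; scaling to epithelial markers was added after seeing the data.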

Additional observations from a re-analysis of the deposited data

Results flagged for a closer look

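Among the 5 OE libraries, 3 of the 10 receptor genes had 1 library far from the other 4, by a gap test that marks about 5% of groups by chance. The same test marked 9.03% of 13030 genes in the OE group. Ghr was at 4.46 scaled TPM in OE 3 and at 0.305 to 1.31 in the others. Ifngr1 was at 207.2 scaled TPM in OE 3, where the gap to the next library was 0.712 of the range, just over the critical value of 0.71, and at 117.9 to 143.6 in the others. OE 3 is one of the libraries with low Y-linked TPM. Il22ra1 was at 10.9 scaled TPM in OE 5 and at 14.6 to 15.7 in the others, and OE 5 had the highest summed Paneth markers, 15144. The part of these library features in the 3 values was not tested.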

How the results depend on the processing

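Under all 22 alternatives 0 receptors were called in each comparison. Of the 27 receptor differences, 11 kept their sign in every alternative: Ghr, Il22ra1, Il4ra and Il6st in KO against Ctrl, Il22ra1, Il4ra and Prlr in OE against Ctrl, and Ghr, Il10rb, Il6st and Prlr in OE against KO. Not every alternative can change a sign. Fitting only the groups compared, or dropping only libraries of the other group, leaves a difference as it was. In KO against Ctrl, leaving out Ctrl 2 and OE 1 repeats leaving out Ctrl 2. Leaving out Ctrl 3, OE 3 and OE 4 likewise repeats leaving out Ctrl 3. Over all genes, 0 were called in each comparison, against 5 and 7 in KO against Ctrl and OE against KO with no filter, 1 in KO against Ctrl and 1 in OE against Ctrl with only the groups compared, 1 in OE against KO without Ctrl 2 and OE 1, and 1 in OE against Ctrl and 1 in OE against KO without Ctrl 3, OE 3 and OE 4. With single libraries left out, 0 to 2 genes were called in KO against Ctrl, 0 to 1 in OE against Ctrl, and 0 to 2 in OE against KO. The cause was not tested.

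Signs turned as follows. In TPM as deposited, KO against Ctrl was 0.19 for Prlr, 0.43 for Il13ra1, 0.22 for Il10rb, 0.40 for Ifngr1 and 0.0501 for Ifngr2, and OE against Ctrl was 0.16 for Ghr, 0.059 for Il13ra1, 0.14 for Il6st, 0.45 for Ifngr1 and 0.30 for Ifngr2. Without mitochondrially encoded genes, Il13ra1 was 0.0125 in KO against Ctrl and Ifngr1 0.00703 in OE against Ctrl. With library weights, KO against Ctrl was 0.0362 for Il13ra1, 0.46 for Il10rb and 0.13 for Ifngr1, and OE against Ctrl was 0.20 for Il10rb and 0.19 for Ifngr1. Without Ctrl 2 and OE 1, KO against Ctrl was 0.0904 for Il13ra1, 0.43 for Il10rb and 0.0192 for Ifngr1, and OE against Ctrl was 0.12 for Ghr, 0.19 for Il10rb, 0.15 for Ifngr1 and 0.00212 for Ifngr2. With a pseudocount of 5, Ghr was 0.00296 in OE against Ctrl. Without Ctrl 3, OE 3 and OE 4, OE against KO was 0.0703 for Il4ra and -0.13 for Ifngr1.

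With single libraries left out, KO against Ctrl ran from -0.47 to 0.31 for Il13ra1, -0.82 to 0.43 for Il10rb and -0.45 to 0.19 for Ifngr1. OE against Ctrl ran from -0.40 to 0.11 for Ghr, -1.09 to 0.17 for Il10rb, -0.26 to 0.0882 for Ifngr1 and -0.36 to 0.0665 for Ifngr2. OE against KO ran from -0.19 to 0.11 for Il4ra, -0.75 to 0.0372 for Il13ra1, -0.13 to 0.0188 for Il22ra1, -0.25 to 0.39 for Ifngr1 and -0.0523 to 0.60 for Ifngr2.

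The replicate numbers did not pair the libraries: deviations of the 7 same-number pairs correlated at -0.18 to 0.063, and 0 of 8 libraries correlated best with its own number. With the replicate block, 0, 3 and 0 genes were called, 0 receptors had an unadjusted p under 0.05, the median of the IL-4 and IL-13 response in OE against Ctrl was 0.17 (4 of 7 positive), that of the kinases and STATs in OE against KO was 0.19 (9 of 11), Ifngr1 was 0.0313 in KO against Ctrl and -0.0449 in OE against KO, and Il22ra1 was 0.11 in OE against KO.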

Other observations

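Ifnar2, a chain of the type I interferon receptor whose gene lies beside Il10rb on chromosome 16, was at 2.59 ± 1.68 scaled TPM (SD, n = 3) in Ctrl, 3.15 ± 3.10 (SD, n = 2) in KO and 8.53 ± 2.99 (SD, n = 5) in OE. The Ifnar2 difference was 1.45 (0.48 to 2.42) in OE against Ctrl, with a limma adjusted p of 0.755. Gm21970, which overlaps Il10rb and has no values here, starts at chr16:91391721, before the start of Il10rb. Whether Gm21970 also overlaps Ifnar2 was not checked. T cell markers summed to 42.7 to 154.9 scaled TPM in Ctrl and 78.1 to 326.8 in OE, and their part in the Ifnar2 difference was not tested. Ifnar1, the partner of Ifnar2, differed by -0.23 (-0.81 to 0.35) in OE against Ctrl.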
